A study of Mus musculus with 14 samples.

Results

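The replication-dependent histone genes encode the linker histone H1 and the core histones H2A, H2B, H3 and H4 that package newly replicated DNA. The 67 protein-coding mouse genes whose symbols begin with Hist1h, Hist2h, Hist3h or Hist4h in the GENCODE M21 annotation of mm10 were taken, out of 21755 protein-coding genes on chromosomes 1 to 19 and X. They comprised 6 H1, 18 H2A, 18 H2B, 12 H3 and 13 H4 genes. The choice rested on names alone and used no measured value.

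The mark H3K4me1, histone H3 with 1 methyl group at lysine 4, was mapped by ChIP-seq in NG3, a clone of immortalized mouse embryo fibroblasts (iMEF) in which exon 4 of endogenous Ash2l is deleted and a lentivirus supplies an FKBP-HA2 tagged human ASH2L, the core subunit of the KMT2 methyltransferase complexes that methylate H3K4. The tag lets dTAG-13 direct the protein to degradation, and control cells carried the same fusion without dTAG-13. The 6 conditions were the control and 0.5, 2, 4, 8 and 16 h of dTAG-13, with 2 replicates each and 2 input libraries, 14 in all. The deposited table is 1 set of 160144 broad sites called over all samples, with a start and an end and no value for any library, so that no replicate, time point or depth stands behind a single site and nothing below compares conditions.

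These genes lack introns in their classical form, are transcribed mainly in S phase, and give mRNAs that end in a conserved stem-loop instead of a poly(A) tail. Most lie in dense clusters that gather NPAT and the 3′ processing machinery in a nuclear body, and many H2A and H2B genes stand head to head around a shared promoter. H3K4me1 is known for enhancers and for the shoulders of active promoters, where H3K4me3 takes the centre. H3K4me3 was not analysed here.

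A site lay in the gene or within 1 kb of it for 56 of the 67 histone genes, or 83.6% (95% Wilson interval 72.9 to 90.6%), where 74.9% of all protein-coding genes had one. Within 1 kb of the most upstream TSS it was 53 genes (79.1%), against 64.4% of all protein-coding genes and 93.0% of the 11801 protein-coding genes that have a CpG island as close to the TSS. Such an island was found for 63 histone genes, but for 39 when islands of at least 500 bp were asked for. A site near the gene was thus common, but the TSS itself was covered in 11 of the 67 genes, or 16.4% (9.42 to 27.1%), and in 23 once sites no more than 1 kb apart were joined. The TSS was covered in 39.8% of all protein-coding genes, in 56.6% of those with a CpG island and in 49.7% (42.6 to 56.8%) of 187 other single-exon genes under 2 kb with a CpG island. The interval of the histone genes did not overlap with these 3. It did overlap with that of all 967 single-exon genes under 2 kb, 13.5% (11.5 to 15.8%). That set includes histone genes, and 24.9% of it had a CpG island. Neighbouring histone genes share sites, so that the intervals, which cover counting alone, are too narrow, and no test was made.

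In total 76 sites touched the histone genes with their flanks. Their median width was 620 bp, with quartiles of 330 and 1023 bp, where the median over all sites on the chromosomes was 603 bp. Of these sites 21 touched more than 1 gene, and none more than 3.

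For 2 genes the annotated TSS says little about the histone promoter. That of Hist1h2be lies 35168 bases from its start codon, next to Hist1h1e, and that of Hist1h1d lies 1828 bases away. In the other 65 genes it was within 500 bases. Positions were therefore also counted from the start codon, where 15 of the 67 genes were covered (22.4%, interval 14.1 to 33.7%) against 39.5% of all protein-coding genes. The start codon was covered in 57.4% of protein-coding genes with a CpG island and in 55.1% of the 187 short single-exon genes with one. A site lay within 1 kb of the start codon in 52 histone genes (77.6%), against 54.0% of all. This is near the 76.1% of protein-coding genes with a CpG island and the 72.2% of the short single-exon genes with one.

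**Figure D1:**
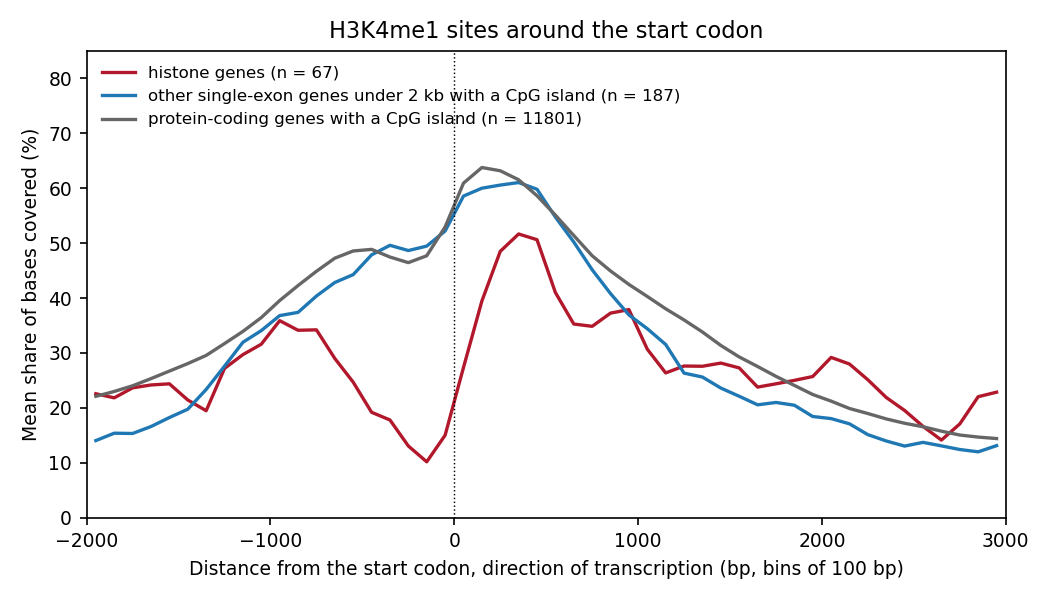
Mean share of bases covered by H3K4me1 sites (y axis, %) in bins of 100 bp by distance from the start codon in the direction of transcription (x axis, bp). The line of the 67 histone genes falls to 10.2% just upstream of the start codon, where the lines of the 2 other gene sets with a CpG island lie between 47 and 50%.

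The profile around the start codon showed where the sites were missing. From 200 to 100 bp upstream of the start codon, the sites covered 10.2% of the bases of the histone genes, against 47.7% where a protein-coding gene has a CpG island and 49.4% for the short single-exon genes with one. Coverage was 51.7% from 300 to 400 bp downstream of the start codon, near the end of the coding sequence of most core histone genes. Upstream it came back to 35.9% at 1000 to 900 bp. Of the 52 genes with a bare start codon, 11 had a site within 1 kb on both sides, 16 only downstream, 10 only upstream and 15 on neither side. In the 11 genes with a site on both sides, the bare stretch had a median length of 794 bp (quartiles 634 and 886 bp). The same stretch was 466 bp (353 and 632 bp) long in 993 protein-coding genes that have a CpG island.

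**Figure D2:**
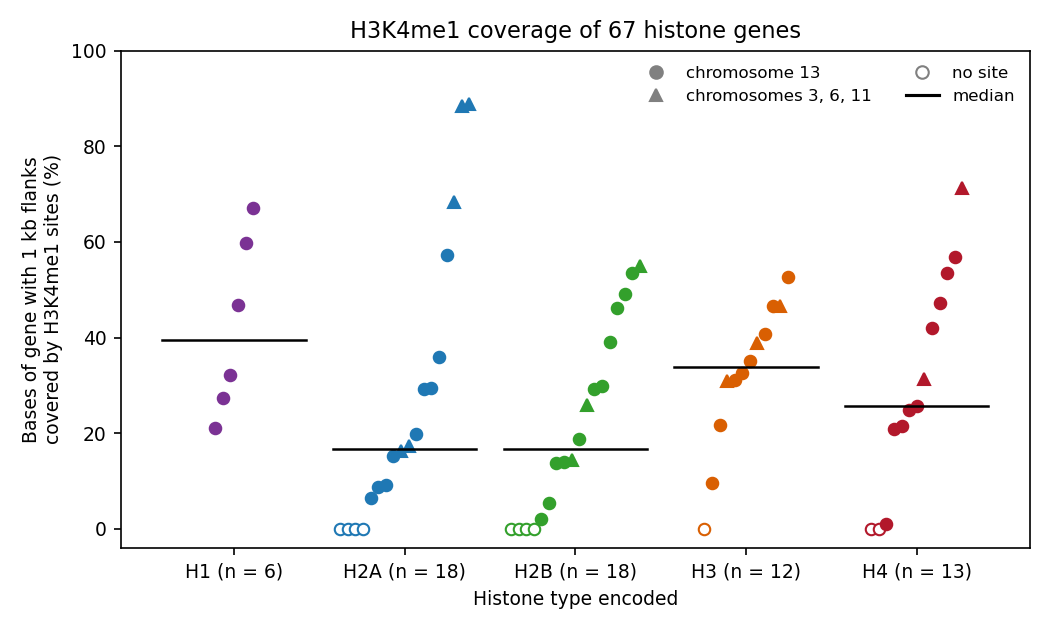
Share of the bases of each histone gene with 1 kb flanks that H3K4me1 sites covered (y axis, %), by histone type (x axis). Each symbol is a gene, open symbols had no site, triangles lie outside chromosome 13 and bars are medians. All 6 H1 genes had a site, and the 3 highest H2A genes, from 68.5 to 88.8%, were all outside chromosome 13.

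The covered share of the gene with 1 kb flanks had a median of 27.4% over the 67 genes (order-statistic interval 19.9 to 32.1%) and ran from 0 to 88.8%. The median over all protein-coding genes was 7.74%, but these are far longer, with a median of 17414 bp against 539 bp. For the 187 short single-exon genes with a CpG island the median was 43.3%.

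The H1 genes encode the linker histones that bind DNA where it enters and leaves the nucleosome. All 6 had a site, and their coding sequences were covered by at least 65.9% and by a median of 96.3%. From 300 to 400 bp downstream of the start codon all 6 were covered in full. Hist1h1b had the highest share of the type, 67.01% of the gene with flanks, and its coding sequence was covered throughout. Hist1h1d had the lowest, 20.99% of a window of 9425 bp, since the annotated gene is 7425 bp long, and 65.9% of its coding sequence was covered. Hist1h1a stood at 59.8%, Hist1h1e at 46.7%, Hist1h1c at 32.1% and Hist1h1t, the H1 variant of the testis, at 27.4%. The start codon was covered in Hist1h1a, Hist1h1b and Hist1h1t and bare in the other 3, each of which had a site within 226 bp downstream.

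The H2A genes encode one partner of the H2A-H2B dimer, and 14 of the 18 had a site. Their median share was 16.7%, with a range from 0 to 88.8%, and the coding sequence was free of sites in 12. Hist2h2ac at 88.8% and Hist2h2ab at 88.4%, neighbours on chromosome 3, were the most covered of all 67 genes. A site of 2623 bp at chr3:96219830-96222452 covered both, and the coding sequence of Hist2h2be, in full. Hist3h2a on chromosome 11 followed at 68.5%, with 3 sites. The 4 genes without a site were Hist1h2ao, Hist1h2ap, Hist1h2ae and Hist1h2aa.

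The H2B genes encode the other partner of that dimer. A site was found for 14 of 18, with a median share of 16.6% and a range from 0 to 54.9%. Hist2h2be had the highest value of the type, 54.9%, and its start codon and coding sequence were covered throughout. The start codon was covered in 4 of the 18. The 4 genes without a site were Hist1h2bq, Hist1h2br, Hist1h2bg and Hist1h2ba. Of the H2A and H2B genes together, 8 of 36 thus had no site, and 3 of the 31 H1, H3 and H4 genes had none. Over all protein-coding genes, 5454 of 21755 had none. Among the histone genes without a site, Hist1h2ao, Hist1h2ap, Hist1h2bq, Hist1h2br and Hist1h4m lie in duplicated sequence. At most 9.11% of the 75-base words around them occur at 1 place in the genome, so that a site could not be placed from most words.

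The H3 genes encode the histone that carries the K4 residue itself. A site was found for 11 of 12, but no H3 gene had its start codon covered, and from 200 to 100 bp upstream of the start codon no base of the 12 genes was covered. Sites lay within 1 kb on both sides of the start codon in 5 of them. At most 47.0% of the words in an H3 coding sequence (Hist1h3a) occur at 1 place in the genome. A site on the coding side of the start codon thus could not be placed from most words. In the 1 kb upstream, unique words made up 15.6% in Hist2h3c1 and 16.5% in Hist2h3c2. They made up at least 86.5% in the other H3 genes (Hist1h3c). The part of uniqueness in the bare start codons was not tested. Hist1h3h had the highest share, 52.8% of the gene with flanks from 3 sites, and its start codon lay in a bare stretch of 740 bp between a site 492 bp upstream and a site 249 bp downstream. Hist1h3b had none, with the nearest sites 2098 bp upstream and 3512 bp downstream of its start codon.

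The H4 genes encode the partner of H3. A site was found for 11 of 13, with a median share of 25.6%, and the start codon was covered in 5. Hist2h4 on chromosome 3 was highest at 71.2%, with its coding sequence inside the widest of the 76 sites, 3426 bp at chr3:96261727-96265152. Hist1h4m and Hist1h4c had no site. Hist1h4n, named after its values were seen, had only 26 covered bases at the edge of its window.

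**Figure D3:**
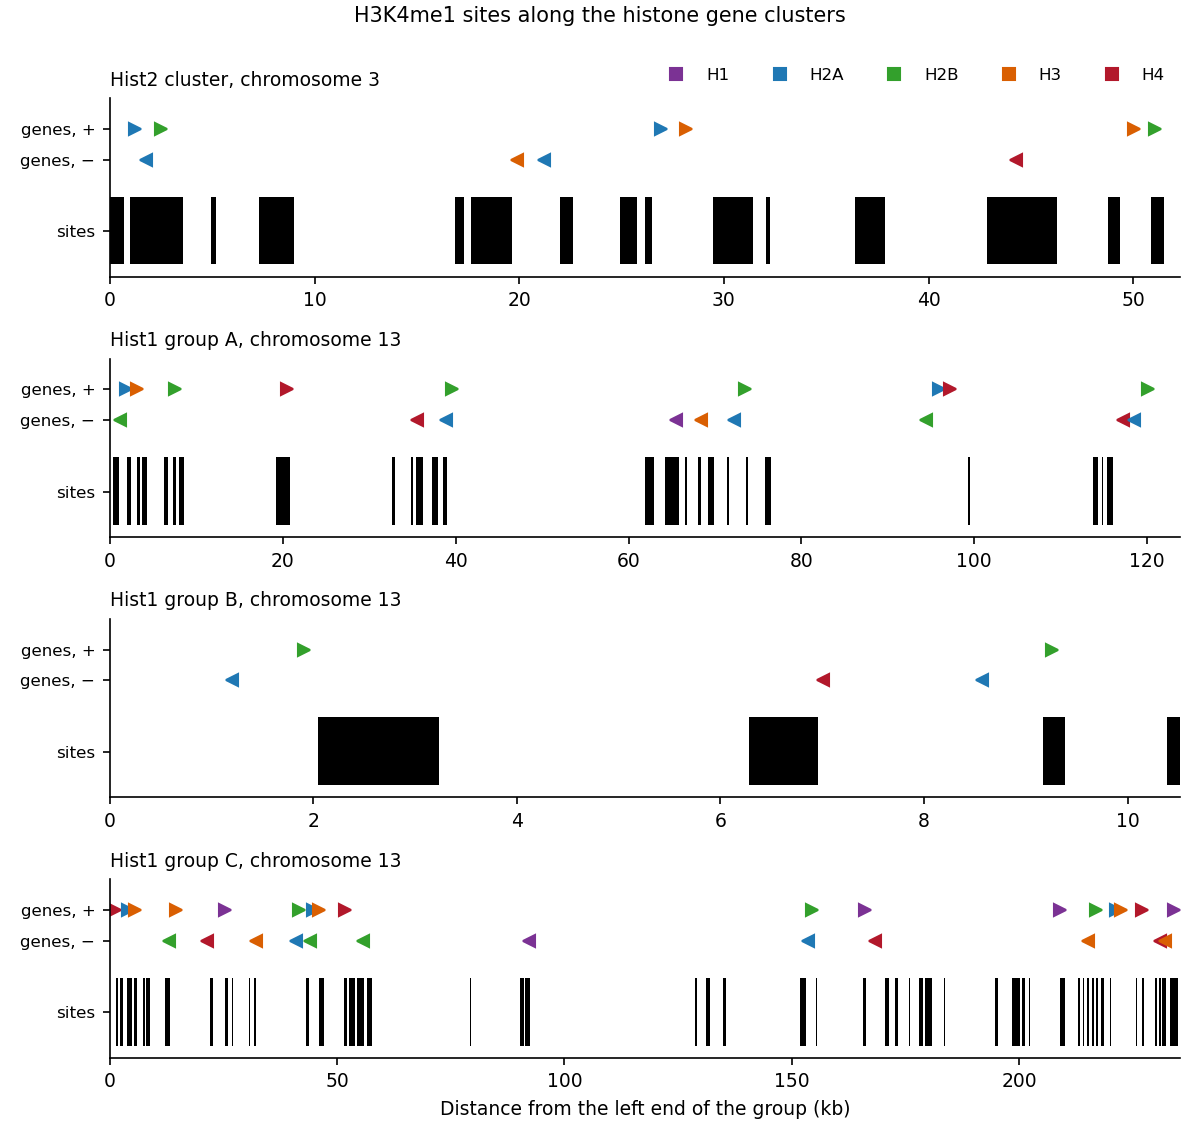
Histone genes (arrowheads, at the middle of the coding sequence and in the direction of transcription, coloured by type) and H3K4me1 sites (black bars) along the 4 clusters with 5 or more genes, by distance from the left end of the cluster (x axis, kb). No black bar lies under the 6 rightmost genes of Hist1 group A.

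Genes within 100 kb of each other formed 6 clusters, and Hist4h4 stood alone. On chromosome 13 they are called groups A to D here, from left to right. Group A, chr13:21714763-21838530, held 18 genes and 25 sites, which covered 11.5% of it. Group B, chr13:22034164-22044676, held 5 genes and 4 sites, with 20.9% covered. Group C, chr13:23530050-23765406, held 29 genes and 52 sites, with 15.4% covered. Group D, chr13:23932773-23935851, is the pair Hist1h2ba and Hist1h2aa, and no site touched it. Over all of chromosome 13, sites covered 5.93% of the bases. They covered 10.2% of the 196 kb between groups A and B, which is close to the share of group A. In the 1485 kb between groups B and C they covered 2.52%, and in the 167 kb between groups C and D 2.12%.

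The clusters outside chromosome 13 were the most covered. In the Hist2 cluster, chr3:96218865-96271132, 15 sites covered 33.8% of 52.3 kb, and all 10 genes had a site. Of the 10, Hist2h2ab, Hist2h2ac, Hist2h2be, Hist2h4 and Hist2h2bb (25.9% of the gene with flanks) had a covered start codon. The start codons of the 3 H3 genes Hist2h3c2 (46.7%), Hist2h3c1 (30.98%) and Hist2h3b (38.9%) and of the 2 H2A genes Hist2h2aa2 (16.2%) and Hist2h2aa1 (17.2%) were bare. No 75-base word of the coding sequence was unique in 4 of these 5, and 6.29% were in Hist2h3b, so that a site there could not be placed from most words. The pair on chromosome 11, Hist3h2ba and Hist3h2a, lay under 36.0% coverage. Hist3h2ba itself reached 14.5%, from 1 site upstream, and its coding sequence was bare. Hist4h4, chr6:136801553-136804415, had 2 sites, one of which covered its start codon and coding sequence, and 31.3% of the gene with flanks.

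By cluster, the start codon was covered in 5 of 10 genes of the Hist2 cluster, in 4 of 18 of group A, in none of 5 of group B, in 5 of 29 of group C and in none of 2 of group D. The longest bare stretch lay in group C and spanned 36.2 kb, chr13:23622461-23658693. Its left end held the start codon and TSS of Hist1h1e, and no histone gene lay wholly inside it. That of group A spanned 22.8 kb and held Hist1h2bn, and a second one of 22771 bp held Hist1h2bq, Hist1h2ao and Hist1h4m.

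**Figure D4:**
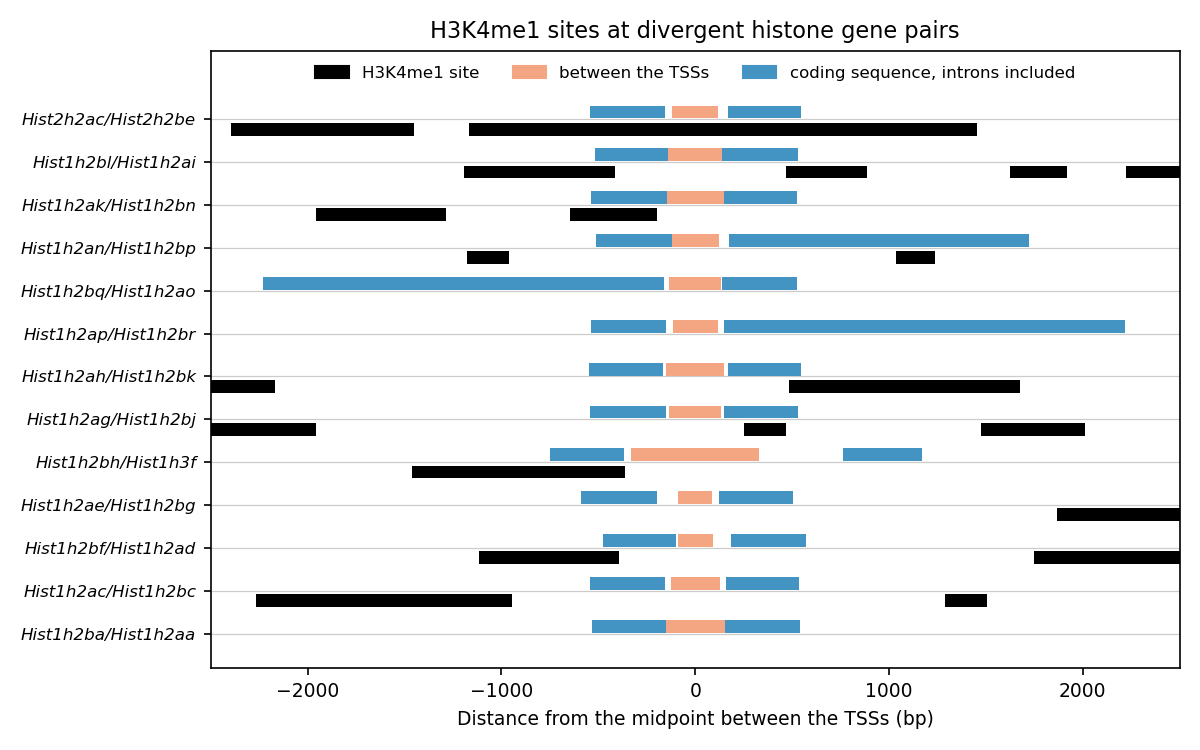
The 13 divergent pairs of histone genes, each aligned at the midpoint between its TSSs (x axis, bp), with the stretch between the TSSs (orange), the coding sequences including introns (blue) and H3K4me1 sites (black, below the genes). The black bars reach the orange stretch in the top pair, Hist2h2ac/Hist2h2be, and in no other.

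In 13 divergent pairs the TSSs of 2 histone genes lay head to head within 1 kb. Of these, 12 joined an H2A with an H2B gene, and 1, Hist1h2bh/Hist1h3f, an H2B with an H3 gene. The stretch between the TSSs was covered in a single pair, Hist2h2ac/Hist2h2be, where the cover was complete. It held no covered base in the other 12, Hist1h2bh/Hist1h3f with its 659 bp included. A covered base between the TSSs was found in 388 of 739 other protein-coding pairs with TSSs as close (52.5%, interval 48.9 to 56.1%), against 7.69% (1.37 to 33.3%) of the histone pairs. When the other pairs were limited to stretches of 150 to 700 bp, which hold all the histone pairs, it was 119 of 280 (42.5%, interval 36.8 to 48.3%). A site stood within 1 kb of the stretch in 9 of the 13 histone pairs and in 267 of these 280. The stretches were rich in unique sequence: with 75 bases added on either side, all 75-base words were found at 1 place in the genome in 10 of the 13, 99.4% in Hist1h2an/Hist1h2bp, and none in Hist1h2bq/Hist1h2ao and Hist1h2ap/Hist1h2br.

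The sequences between the TSSs of 4 pairs are shown because they cover the outcomes seen: the covered pair, a bare pair with sites to either side, a bare pair without a site near either gene, and a bare pair in duplicated sequence. They are read from GRCm38.p6 on the plus strand, and capitals mark 3 motifs on either strand: CCAAT, the box bound by NF-Y, then TATAAA, the TATA box, and TTTGCAT, the end of the octamer ATTTGCAT that binds Oct-1 (Pou2f1).

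Hist2h2ac/Hist2h2be, chr3:96220881-96221118, covered: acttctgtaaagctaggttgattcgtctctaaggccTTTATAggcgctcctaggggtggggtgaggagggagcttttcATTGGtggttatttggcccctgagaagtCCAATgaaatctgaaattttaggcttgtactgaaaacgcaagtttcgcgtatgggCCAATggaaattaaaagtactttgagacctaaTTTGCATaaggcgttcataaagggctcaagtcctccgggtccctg

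Hist1h2ac/Hist1h2bc, chr13:23683949-23684198, bare: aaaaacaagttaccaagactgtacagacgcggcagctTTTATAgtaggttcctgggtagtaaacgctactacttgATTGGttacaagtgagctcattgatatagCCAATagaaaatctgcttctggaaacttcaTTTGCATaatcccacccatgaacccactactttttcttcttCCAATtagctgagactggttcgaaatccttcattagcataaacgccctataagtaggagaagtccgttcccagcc

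Hist1h2ae/Hist1h2bg, chr13:23571221-23571395, bare: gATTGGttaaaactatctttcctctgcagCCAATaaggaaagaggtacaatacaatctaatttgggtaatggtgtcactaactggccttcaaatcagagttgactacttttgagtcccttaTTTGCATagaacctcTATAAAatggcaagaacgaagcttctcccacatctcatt

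Hist1h2ap/Hist1h2br, chr13:21833508-21833742, bare: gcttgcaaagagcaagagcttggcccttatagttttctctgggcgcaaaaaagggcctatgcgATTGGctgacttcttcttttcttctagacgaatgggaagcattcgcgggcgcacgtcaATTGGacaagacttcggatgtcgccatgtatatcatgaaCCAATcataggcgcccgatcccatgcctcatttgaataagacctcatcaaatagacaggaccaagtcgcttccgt

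Hist2h2ac/Hist2h2be, Hist1h2ac/Hist1h2bc and Hist1h2ae/Hist1h2bg each held CCAAT boxes, 1 TATAAA and 1 octamer. Of the 9 bare stretches of at most 300 bp, 9 held CCAAT, 4 held TATAAA and 2 held the octamer. The GC content was 45.8% in Hist2h2ac/Hist2h2be, 41.6% in Hist1h2ac/Hist1h2bc, 38.3% in Hist1h2ae/Hist1h2bg and 48.5% in Hist1h2ap/Hist1h2br. Around Hist1h2ac/Hist1h2bc the nearest sites began 788 bp downstream of the start codon of Hist1h2ac and 1130 bp downstream of that of Hist1h2bc, which left the shared promoter and both coding sequences bare.

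The 24 genes in pairs with start codons within 1 kb of each other were covered less than the other 43. The median share of the gene with flanks was 11.4% (quartiles 0 and 29.3%) against 31.3% (20.96 and 47.0%), and the coding sequence held a site in 8 of 24 against 30 of 43. The 24 genes include Hist1h2bq, Hist1h2ao, Hist1h2ap and Hist1h2br, which have at most 3.12% unique words around them. They enter at 0% covered, though a site there could not be placed, and this lowers the values of the paired genes. Among the other paired genes, unique words in the coding sequence ran from 0% (Hist1h2ad, Hist1h2ag) to 100% (Hist2h2be, Hist1h2aa). In most of them the share was at or below the 36.5% of Hist1h2bj. All these pairs join an H2A with an H2B gene, so that pairing, histone type and uniqueness go together here. No test was made, since the 2 genes of a pair share their flank.

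In the 300 bases before the start codon, CCAAT on either strand was found in all H1, H2A, H2B and H3 genes and in 4 of 13 H4 genes, in 58 of 67 together and in 33.1% of all 21755 protein-coding genes. TATAAA on the gene's strand was found in 34 of 67 and in 9.77% of all. The full octamer ATTTGCAT, on either strand, was found in 7 of 18 H2A and 9 of 18 H2B genes, in no other histone gene and in 1.52% of all protein-coding genes. Of the 11 genes without a site, 10 held CCAAT, 5 TATAAA and 4 the octamer.

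**Figure D5:**
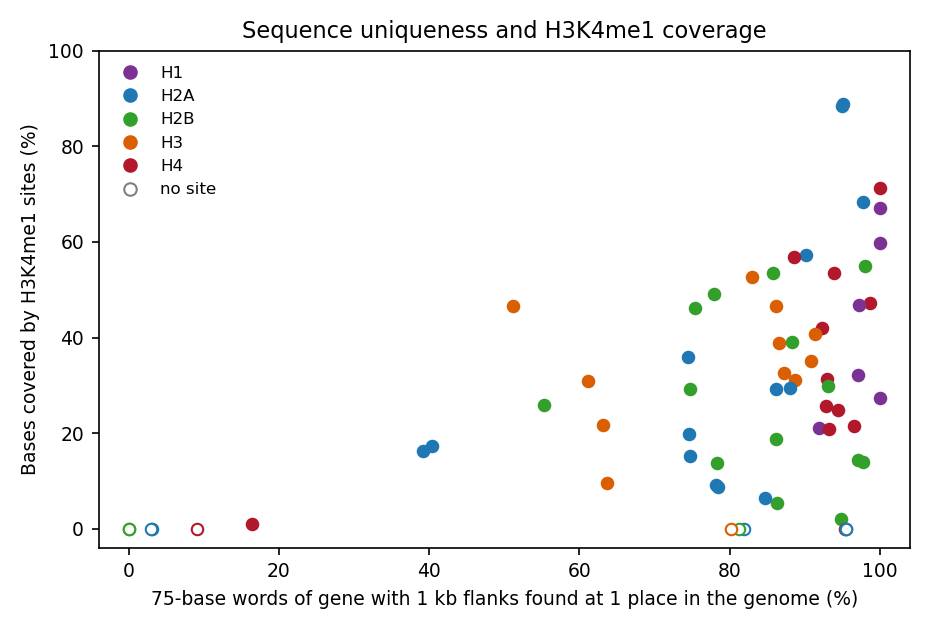
Share of 75-base words of each gene with 1 kb flanks that occur at 1 place in the genome (x axis, %) against the share of its bases covered by H3K4me1 sites (y axis, %), 1 symbol per gene, coloured by histone type, open without a site. Of the 11 open symbols, 5 lie under 10% and 6 between 80 and 96% on the x axis.

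The 11 genes without a site fell into 2 kinds by the uniqueness of their sequence, counted as the share of 75-base words, the length of the reads, that occur at 1 place in the genome. In 5 genes hardly any word was unique: 0% in Hist1h2bq (chr13:21806612-21810197) and Hist1h2br (chr13:21833743-21837530), 2.91% in Hist1h2ap (chr13:21833026-21833507), 3.12% in Hist1h2ao (chr13:21810465-21810944) and 9.11% in Hist1h4m (chr13:21811746-21812147). In the other 6 the share was 80.2% in Hist1h3b (chr13:23752267-23752886), 81.3% in Hist1h2bg (chr13:23571396-23572013), 81.9% in Hist1h2ae (chr13:23570517-23571220), 95.4% in Hist1h4c (chr13:23697635-23698454) and 95.5% in both Hist1h2ba (chr13:23933773-23934156) and Hist1h2aa (chr13:23934462-23934851). Over the 56 genes with a site the median was 88.4%, and 3 were under 50%.

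The 5 genes with few unique words lie in the right part of group A, in an inverted repeat. Hist1h2bq, Hist1h2ao and Hist1h4m stand in this order in one arm, chr13:21805612-21813147, and Hist1h4n, Hist1h2ap and Hist1h2br in the other, chr13:21830767-21838530. The coding sequences of Hist1h2bq and Hist1h2br, of Hist1h2ao and Hist1h2ap and of Hist1h4m and Hist1h4n differed at 0 bases, as did the 295 bases between the start codons of the 2 pairs. No site touched the first arm, and 26 bases of 1 site touched the second, at the edge of the Hist1h4n window. A read from such sequence cannot be placed at 1 arm, and whether H3K4me1 was present there cannot be told from the table.

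Uniqueness also moved with the presence of a site across genes. Where a protein-coding gene had a CpG island, a site lay within 1 kb of the TSS for 1.75% of 57 with under 10% unique words there, for 43.2% of 44 with 10 to 50%, for 75.2% of 210 with 50 to 90% and for 93.9% of 11490 with 90% or more. For the histone genes it was 0 of 4, 3 of 6, 28 of 32 and 22 of 25. Within their own windows, sites covered 63.1% of the coding bases in unique words and 24.2% of those in recurring words. Of all other bases of the gene with flanks they covered 24.7% and 2.29%. The recurring bases include those of the inverted repeat, whose arms held only 26 covered bases. Uniqueness differed between histone types too, with a median of 80.2% unique words around H2A, 86.0% around H2B, 84.6% around H3, 93.3% around H4 and 98.6% around H1 genes. In the coding sequence alone the gap was wider. There the share of unique words was at least 81.7% in every H1 gene (Hist1h1d) and at most 47.0% in every H3 gene (Hist1h3a). The part of uniqueness in the differences between types was not tested.

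The 6 genes without a site whose windows with flanks were mostly unique lay at 3 places in group C and in group D. Their coding sequences were less unique, with 4.79% unique words in Hist1h3b, 15.1% in Hist1h2bg, 33.2% in Hist1h2ae and 46.4% in Hist1h4c. The share was 67.4% in Hist1h2ba and 100% in Hist1h2aa. The nearest site of Hist1h4c lay 1968 bp downstream of its start codon, and Hist1h1t, the next gene, had its start codon covered. Hist1h2ae and Hist1h2bg form a divergent pair, and the nearest sites began 8890 bp downstream of the start codon of Hist1h2ae and 1741 bp downstream of that of Hist1h2bg. Hist1h2ba and Hist1h2aa, known as the testis H2B and H2A genes, had no site for 5219 and 25145 bp downstream, no CpG island, and all words between their TSSs were unique. Of the 3 testis genes, Hist1h1t alone had a site, of 799 covered bases, which spanned its start codon and covered 98.2% of its coding sequence.

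The 67 genes encode 31 different proteins by the annotated coding sequences, and 44 genes share their protein with another. These counts rest on annotated lengths that differ from the classical genes in 4 cases. Hist2h3c1 has 181 residues, where the other H3 genes have 136. Hist1h2bp has 138 and Hist1h2bq and Hist1h2br have 134, where most H2B genes have 126. For 4 proteins some genes had a site and others none. The H4 protein is encoded by all 13 H4 genes, and their covered share ran from 0% in Hist1h4m and Hist1h4c to 71.2% in Hist2h4. An H2A protein of 130 residues is encoded by 9 genes from 0% in Hist1h2ao, Hist1h2ap and Hist1h2ae to 35.9% in Hist1h2ai. An H3 protein of 136 residues is encoded by 7 genes from 0% in Hist1h3b to 46.7% in Hist2h3c2. An H2B protein of 126 residues is encoded by Hist1h2bg without a site, by Hist1h2bc with 2.00% and by Hist1h2be with 13.9% of the gene with flanks. These 2 genes are annotated with 8710 and 37455 bp, where Hist1h2bg has 618 bp, and 73.0% of the coding sequence of Hist1h2be was covered but none of that of Hist1h2bc. The second H3 protein of 136 residues, encoded by 4 genes, had sites at all of them, from 31.1% in Hist1h3i to 52.8% in Hist1h3h.

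The stem-loop that ends these mRNAs was looked for in the 150 bases after the stop codon. The pattern was 6 paired bases that begin with GG, a loop of 4 bases that begins with TT, and the partner strand. At most 1 G-T pair was allowed. A match was found in 61 of the 67 genes, from 25 to 62 bases after the stop codon. The forms below are the 3 most frequent, with the loop in capitals, and are shown because they are shared between genes with and without a site.

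Hist2h3c2 and 37 others: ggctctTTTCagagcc

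Hist2h2ab and 8 others: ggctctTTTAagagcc

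Hist4h4 and 7 others: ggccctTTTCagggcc

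A site lay at 32 of the 38 genes with the first form, 8 of 9 with the second and 6 of 8 with the third, which was found in H4 genes alone. The 6 genes without a match were Hist2h2be, Hist1h2bp, Hist1h2bq, Hist1h2br, Hist1h3g and Hist1h4a. For Hist1h2bp, Hist1h2bq and Hist1h2br the search began at the stop codon of an annotated transcript with introns in its coding part. The lack of a match thus does not show that a gene lacks a stem-loop.

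Replication-independent histone genes encode variants that are made outside S phase or in particular cells. Of 19 on the list 17 were in the annotation. A site was found for 12, and the TSS was covered in 8, where the shares over all protein-coding genes were 74.9 and 39.8%. H1f0, the linker histone of resting cells, was covered over 100% of the gene with flanks, and H1fx, another replication-independent H1, over 87.4%. H2afj reached 63.6%, and H2afx, the H2A variant phosphorylated at DNA breaks, 66.7% with a bare TSS. H3f3a, which encodes H3.3, had its TSS covered, and Cenpa, the centromeric H3, too. H3f3b, the other H3.3 gene, had a bare TSS and no site within 1 kb of it, though its start codon was covered. The TSS was also bare in H2afz and H2afv. The 5 without a site were H2afb1, H2afb2, H2afb3, H2bfm and Hils1, all best known from the testis.

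Of 25 genes for transcription and 3′ processing of histone mRNAs, 24 had a site and 21 had one within 1 kb of the TSS, of which 6 covered the TSS. The 3 shares were 74.9, 64.4 and 39.8% over all protein-coding genes, and 95.3, 93.0 and 56.6% over those with a CpG island. Such an island was found for 22 of the 25. Npat, which activates the clusters, had 1274 of the 2001 bases around its TSS covered and a bare TSS, and Slbp, which binds the stem-loop, had 994 covered and a bare TSS. Ccne2, which encodes a cyclin E that activates Npat through Cdk2, was covered over all 2001 bases. Nfya, a subunit of the factor that binds CCAAT, was the only 1 without a site.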

How the data were processed

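H3K4me1 ChIP-seq reads were single-end, from a 75-cycle kit. Per the labels and the methods, the authors used BWA for alignment to mm10 and SAMtools for filtering, pooled the replicates, and obtained broad peaks with MACS2. Versions are not given in the sources used here. The deposited table holds positions only, 1 set over all samples, counted from 0. Printed coordinates count from 1.

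Genes came from GENCODE M21, since M25, which the authors used, was not used here, and sequence from GRCm38.p6. Overlap meant at least 1 bp. CpG islands scored 17 per CpG and -1 per other base, with at least 200 bp, 50% GC and an observed to expected ratio of 0.6. Words of 75 bases were counted on both strands of the genome with unplaced scaffolds. Python 3.11.15, numpy 2.4.6, scipy 1.17.1, numba 0.67.0 and matplotlib 3.10.9 were used, and the functions were tested on simulated data.

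Genes named are those without a site, the extremes of each histone type, those outside chromosome 13, testis genes, divergent pairs, genes sharing a protein and 2 lists, and others were named after their values were seen. Members and lists were chosen with earlier results of these data known. No test was run, since no value per library exists.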

Additional observations from a re-analysis of the deposited data

How the results depend on the processing

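Of 31 alternatives over 9 results, 24 planned and 7 added after the data were seen, 28 left a count within 1.5 times its value or a median within its order-statistic interval. With sites within 1 kb merged, the TSS was covered in 23 genes in place of 11. With only sites of at least 500 bp, the median covered share was 18.9% in place of 27.4%. With CpG islands of at least 500 bp, 39 genes in place of 63 had one near the TSS. The count of genes with a site ran from 38, by overlap with the coding sequence, to 61, with flanks of 2 kb, and at the promoter from 39, with sites of at least 500 bp, to 53. The lowest count in each case lies below the Wilson interval of the main share. The median of unique words around the 11 genes without a site was 80.2%, or 41.4% over the gene alone. This change and the count of 38 genes are both among the 28, so that the rule is a wide one. No paired analysis was possible because libraries have no values of their own in the deposited set, and leaving out each replicate could not be run for the same reason. Sites near the calling limit and sites present at some times only cannot be told apart from others.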
